A study of Mus musculus with 16 samples.

Results

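Reelin and its receptor pathway are described here in mitral cells, which carry the output of the olfactory bulb, through 7 genes: Reln, Vldlr, Lrp8, Dab1, Fyn, Crk and Crkl. Their probes were found by matching the RefSeq transcript of each probe to these symbols, which gave 14 of the 55598 probes kept on the array. Of these, 10 could be tested, and all 7 genes were among the 12033 named genes tested. The genes were put together with earlier results of these arrays in view, namely that Reln and Vldlr were higher in cells carrying Kir2.1. For these 7 genes, the values that compare Kir2.1 with control at each age or averaged over both are therefore given as a description, with no test.

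Reelin is a large secreted glycoprotein that guides the placement of neurons and the growth of their dendrites. It binds 2 receptors of the LDL receptor family, VLDLR and ApoER2 (the product of Lrp8), on the receiving cell. Binding leads Src family kinases, FYN among them, to phosphorylate the adaptor DAB1, which then recruits CRK and CRKL. In the olfactory bulb, mitral cells are a known source of reelin.

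The cells were taken from the olfactory bulb of mice of the ICR strain on postnatal day 3 (P3) or 6 (P6). All cells carried EYFP, a yellow fluorescent protein, introduced by electroporation in utero at embryonic day 12. Control cells carried the EYFP plasmid alone, and Kir2.1 cells also carried a plasmid for Kir2.1, a potassium channel of the inward rectifier family whose expression makes neurons less excitable. Both plasmids used the CAG promoter, which is active in most cell types and so does not limit expression to mitral cells. Single fluorescent cells were picked by hand, their cDNA was amplified by 30 cycles of PCR, and only cells in which PCR found both EYFP and Pcdh21 (now Cdhr1) were kept. Each array held the cDNA of 10 cells, and each of the 4 groups (P3 control, P3 Kir2.1, P6 control and P6 Kir2.1) held 4 such pools, 40 cells in all. The pools are labelled as biological replicates, but the animals behind them are not named, so p-values reflect how much pools varied, which may include technical variation.

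All P3 arrays lay on slide 1 and all P6 arrays on slide 2, so the effects of age and of slide cannot be told apart. On each slide the control pools lay in row 1 and the Kir2.1 pools in row 2, so treatment and row cannot be told apart either. Well-above-background probes made up 34.3% to 41.1% of an array. Pools of the same group correlated with a median r over all features between 0.803 (P6 control) and 0.874 (P3 control). Of 9 mitral and tufted cell markers, Cdhr1, Tbx21, Eomes, Tbr1, Slc17a7, Slc17a6 and Nrp1 were well above background in all 16 pools, and Lhx5 in 0. Barhl2 was in 1, 2, 2 and 3 pools of P3 control, P3 Kir2.1, P6 control and P6 Kir2.1. Cells had been kept only where PCR found Cdhr1. Glial markers varied. Some, such as Aqp4 and Mbp, were well above background in all 16 pools, and others, such as Gja1 and C1qa, in 1 each. The pools were thus not free of such transcripts. A level is the log2 of a signal over its array's 75th percentile among probes detected on all arrays, and a level of one probe is not set against that of another.

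Reln, the ligand, was read by 1 probe (A_66_P108810). Its promoter window, from 250 bases before to 50 bases after the RefSeq transcription start (GRCm38.p6, chr5:22344656-22344955, minus strand), is shown because the pools of Reln did not overlap between treatments at either age. Capitals mark GC boxes (GGGCGG) and the E-box CACGTG, searched on both strands.
Reln: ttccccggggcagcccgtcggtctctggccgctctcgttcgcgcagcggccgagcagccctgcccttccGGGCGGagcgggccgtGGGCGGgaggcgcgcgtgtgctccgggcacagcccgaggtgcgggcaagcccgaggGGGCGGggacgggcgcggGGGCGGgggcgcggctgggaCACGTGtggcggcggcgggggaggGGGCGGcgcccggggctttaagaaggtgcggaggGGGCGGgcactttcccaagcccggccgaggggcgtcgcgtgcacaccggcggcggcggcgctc
This window had 80.7% G and C and 47 CpG, where the median of 32851 promoter windows was 52.7% and 7 CpG. It held 6 GC boxes and 1 E-box, which occurred in 35.7% and 7.15% of all windows. The match of a motif describes the letters and shows no binding.

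At P3, the level of Reln was -5.42, -4.93, -5.68 and -5.42 in control pools 1 to 4. In the Kir2.1 pools of that age it was -2.40, -2.64, -2.36 and -2.37. The groups did not overlap, and both were narrow, with means of -5.36 ± 0.31 (SD, n = 4) and -2.44 ± 0.14 (SD, n = 4). The difference was 2.92 (SE 0.74), a 7.56-fold higher signal with Kir2.1.

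At P6, Reln lay at -6.45, -7.60, -9.41 and -9.48 in control pools 1 to 4, and only pool 1 was well above background. The P6 Kir2.1 pools lay at -5.43, -3.16, -5.93 and -2.88 and were all well above background. Every Kir2.1 pool was above every control pool, but the Kir2.1 pools fell into a brighter pair, pools 2 and 4, and a dimmer pair, pools 1 and 3. The means were -8.24 ± 1.48 (SD, n = 4) and -4.35 ± 1.55 (SD, n = 4), a difference of 3.89 (SE 0.74). Since 3 of the 4 control pools were at background, the size of this difference depends on how dim signals are treated. It was 2.74 with dim signals set to the lowest signal well above background, and 1.08 after normexp background correction with an offset of 50. At P3 the normexp value was 1.66, so the order of the 2 ages depends on this choice as well.

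Over the 4 groups, the mean level of Reln was highest in P3 Kir2.1, followed by P6 Kir2.1, P3 control and P6 control. P3 Kir2.1 did not overlap P6 Kir2.1, and P3 control did not overlap P6 control, while P6 Kir2.1 and P3 control overlapped. From P3 to P6 the mean level differed by -2.88 in control and by -1.91 in Kir2.1 cells, and in both cases every P6 pool was below every P3 pool. The ages did not overlap, in either direction, for 12.7% of all features in control and 10.5% in Kir2.1 cells. The control value was -1.73 with the floor on dim signals and -0.56 with normexp. The age comparison in control and the Kir2.1 comparison at P6 both use the P6 control pools.

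**Figure D1:**
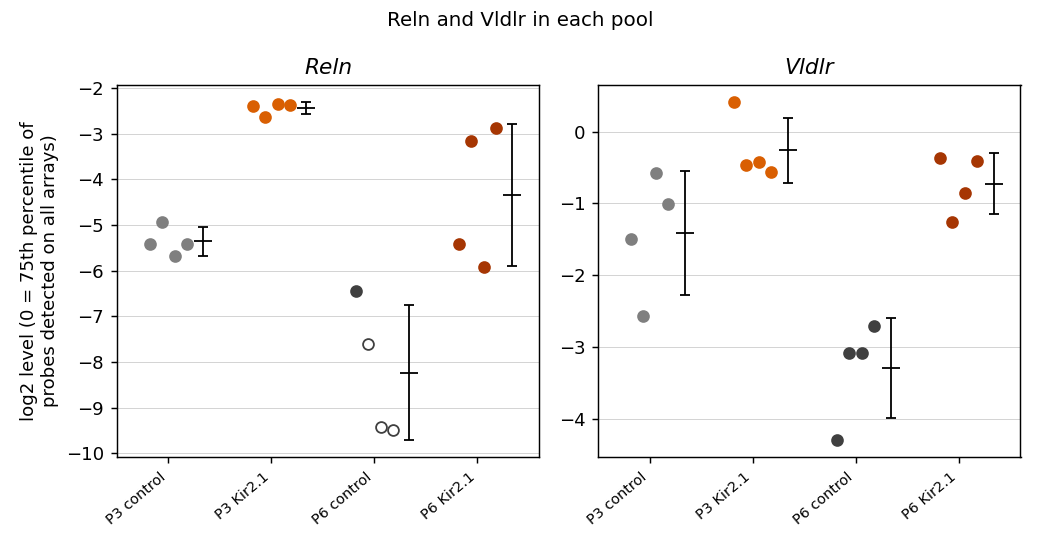
Log2 level of Reln and Vldlr in each of the 16 pools (filled, well above background; open, not), by group, with the mean and SD of 4 pools beside the points. At both ages every Kir2.1 pool is above every control pool, and Reln is well above background in 1 of the 4 P6 control pools.

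Vldlr, which encodes one of the reelin receptors, had 2 probes, and A_55_P2030524, well above background in all 16 pools, stands for the gene. Its 2 promoter windows (GRCm38.p6, plus strand, chr19:27216234-27216533 and chr19:27216770-27217069) are shown because its pools did not overlap between treatments at either age either. Capitals mark a GC box, here on the opposite strand (CCGCCC).
Vldlr window 1: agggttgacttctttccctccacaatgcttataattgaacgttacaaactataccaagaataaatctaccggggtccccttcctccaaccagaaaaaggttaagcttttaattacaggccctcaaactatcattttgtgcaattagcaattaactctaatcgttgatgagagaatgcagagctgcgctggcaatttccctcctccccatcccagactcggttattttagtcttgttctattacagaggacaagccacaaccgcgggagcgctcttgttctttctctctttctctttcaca
Vldlr window 2: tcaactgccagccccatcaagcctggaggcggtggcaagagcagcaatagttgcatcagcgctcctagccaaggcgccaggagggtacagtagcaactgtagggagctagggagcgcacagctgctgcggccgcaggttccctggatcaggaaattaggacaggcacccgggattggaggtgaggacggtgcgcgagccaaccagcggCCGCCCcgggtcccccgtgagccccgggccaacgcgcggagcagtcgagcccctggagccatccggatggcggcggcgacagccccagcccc
Window 1 had 43.0% G and C with 8 CpG, and window 2 had 68.0% with 23 CpG. Neither window held the E-box found in the Reln window, and none of the 3 windows held TGACGTCA (1.79% of all windows), AGGTGTGA (1.28%) or TATAAA (13.6%). That says only that these letters are not in these windows.

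In P3 control pools 1 to 4, the level of Vldlr was -1.49, -2.57, -0.57 and -1.0. In P3 Kir2.1 pools it was 0.41, -0.47, -0.42 and -0.56. The groups did not overlap, but the highest control pool and the lowest Kir2.1 pool were nearly level, and the means of -1.41 ± 0.86 (SD, n = 4) and -0.26 ± 0.45 (SD, n = 4) differed by 1.15 (SE 0.45). The P6 control pools lay at -4.29, -3.08, -3.08 and -2.71, and the P6 Kir2.1 pools at -0.36, -1.26, -0.86 and -0.41. Here the gap between the groups was wide, and the means of -3.29 ± 0.69 (SD, n = 4) and -0.72 ± 0.42 (SD, n = 4) differed by 2.57 (SE 0.45), or 5.93-fold.

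The P6 control pools of Vldlr stood below all 12 other pools. P3 control did not overlap P6 control, as held for 12.7% of all features, with a difference of -1.88 from P3 to P6. The other neighbours in the order of means, P3 Kir2.1, P6 Kir2.1 and P3 control, overlapped, and the difference from P3 to P6 within Kir2.1 cells was -0.46. The second Vldlr probe, A_55_P2174836, was well above background in only 1 pool, pool 4 of P3 control, and gave no comparison.

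Lrp8, which encodes the other reelin receptor, ApoER2, was read by A_55_P2014555 in all 16 pools. Its level was -2.17, -1.45, -3.33 and -1.61 in P3 control pools 1 to 4, and -4.64, -3.90, -3.73 and -3.60 in P6 control pools. Every P6 control pool was below every P3 control pool, by a mean of -1.83 (SE 0.58, 95% interval -3.07 to -0.58), without passing the threshold of 0.05 in limma after Benjamini-Hochberg adjustment over all 21068 features (adjusted p = 0.114). In Kir2.1 cells the pools lay at -3.85, -2.46, -4.03 and -1.73 at P3, and at -2.08, -4.05, -2.88 and -3.17 at P6. These 2 groups overlapped throughout and differed by -0.03 (limma adjusted p = 0.987). The interaction, the change with age in Kir2.1 cells less that in control cells, was 1.79 (SE 0.82, limma adjusted p = 0.459). Kir2.1 differed from control by -0.88 at P3 and 0.92 at P6, with overlapping pools at both ages. The second Lrp8 probe, A_52_P279687, was well above background only in P3 Kir2.1 pools 3 and 4.

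Dab1, which encodes the adaptor that docks on both receptors, had the smallest standard error of the 7 members. Its probe A_55_P2112892 lay at -2.42, -2.16, -2.47 and -2.48 in P3 control pools 1 to 4, and at -1.66, -1.53, -1.98 and -1.40 in P6 control pools. All P6 control pools were above all P3 control pools, a difference of 0.74 (SE 0.22, 95% interval 0.28 to 1.20) that did not pass the threshold (limma adjusted p = 0.0886). The P3 Kir2.1 pools lay at -2.70, -2.60, -2.35 and -2.02, and the P6 Kir2.1 pools at -2.02, -2.05, -2.18 and -1.81. These groups overlapped, with a difference of 0.40 (SE 0.22, limma adjusted p = 0.404), and the interaction was -0.34 (limma adjusted p = 0.746). Kir2.1 less control was -0.04 at P3 and -0.37 at P6. With the mean of all 4 tested Dab1 probes in place of this probe, these turned to 0.21 and 0.04, and P6 less P3 was 1.44 in control and 1.27 in Kir2.1 cells, with a larger standard error (0.89).

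The 4 probes of Dab1 did not behave alike. A_52_P392216, which the array assigns to another RefSeq transcript of the gene than the other 3, was well above background in all 8 pools of P6 and in 1 of the 8 pools of P3. Its levels were -2.29, -1.54, -2.66 and -4.49 in P6 control and -1.37, -6.47, -2.37 and -2.88 in P6 Kir2.1. At P3 the 1 pool well above background, control pool 2, stood at -3.19, and the other P3 pools lay between -9.57 and -6.97. With every probe fitted as its own feature, P6 less P3 was 4.58 in control (SE 1.32, limma adjusted p = 0.0889). In Kir2.1 cells, where no P3 pool was well above background, P6 was at least 16.2-fold brighter (limma adjusted p = 0.120). Neither passed the threshold, which 2.3% and 0.833% of the 24008 probes did. The remaining probes, A_51_P437135 and A_55_P2120060, were both well above background in 5 pools, neither was in 10, and 1 pool had the first only.

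Fyn encodes a Src family kinase that phosphorylates DAB1. It lay at -4.62, -4.34, -3.57 and -3.10 in P3 control and at -2.91, -4.51, -1.83 and -1.90 in P6 control. In Kir2.1 cells it lay at -3.82, -3.87, -4.12 and -3.33 at P3, and at -8.17, -3.52, -4.04 and -4.32 at P6, where pool 1 was not well above background. The groups overlapped in each comparison. P6 less P3 was 1.12 in control (SE 0.87, limma adjusted p = 0.550) and -1.23 in Kir2.1 cells (limma adjusted p = 0.556), and the interaction was -2.35 (SE 1.23, limma adjusted p = 0.532). Kir2.1 less control was 0.12 at P3 and -2.22 at P6. Without pool 1 of P6 Kir2.1 the latter was -1.17.

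Crk encodes an SH2 and SH3 domain adaptor that binds phosphorylated DAB1. Its probe A_51_P180452 lay at -3.37, -2.47, -3.14 and -3.62 in P3 control and at -3.23, -2.27, -2.44 and -3.11 in P3 Kir2.1, which overlapped. In P6 control it lay at -3.49, -7.84, -3.59 and -6.60, with pool 2 not well above background, and in P6 Kir2.1 at -1.36, -3.32, -1.07 and -2.97. All P6 Kir2.1 pools were above all P6 control pools, with a difference of 3.20 (SE 0.86), but the lowest Kir2.1 pool and the highest control pool were close, and the difference was 1.74 with normexp. P6 less P3 was -2.23 in control (SE 0.86, limma adjusted p = 0.190) and 0.59 in Kir2.1 cells (limma adjusted p = 0.801), with an interaction of 2.82 (SE 1.22, limma adjusted p = 0.424). Without P6 control pool 2, the difference at P6 was 2.38. Of its other probes, A_52_P618807 was well above background only in P3 Kir2.1 pools 2 and 4, and A_55_P2173014 in no pool.

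Crkl, which encodes a close relative of CRK, was the least evenly measured member. It lay at -5.89, -4.24, -7.06 and -7.82 in P3 control and at -5.17, -4.92, -4.04 and -9.24 in P3 Kir2.1, with 3 of these 8 pools not well above background. At P6 it lay at -6.83, -3.85, -3.43 and -5.07 in control and at -4.13, -7.11, -4.21 and -3.74 in Kir2.1. All groups overlapped, and the standard error of each difference between 2 groups was 1.18. The difference from P3 to P6 was 1.46 in control (limma adjusted p = 0.570) and 1.04 in Kir2.1 cells (limma adjusted p = 0.733), and the 95% intervals, -1.09 to 4.00 and -1.50 to 3.59, leave room for changes in either direction.

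**Figure D2:**
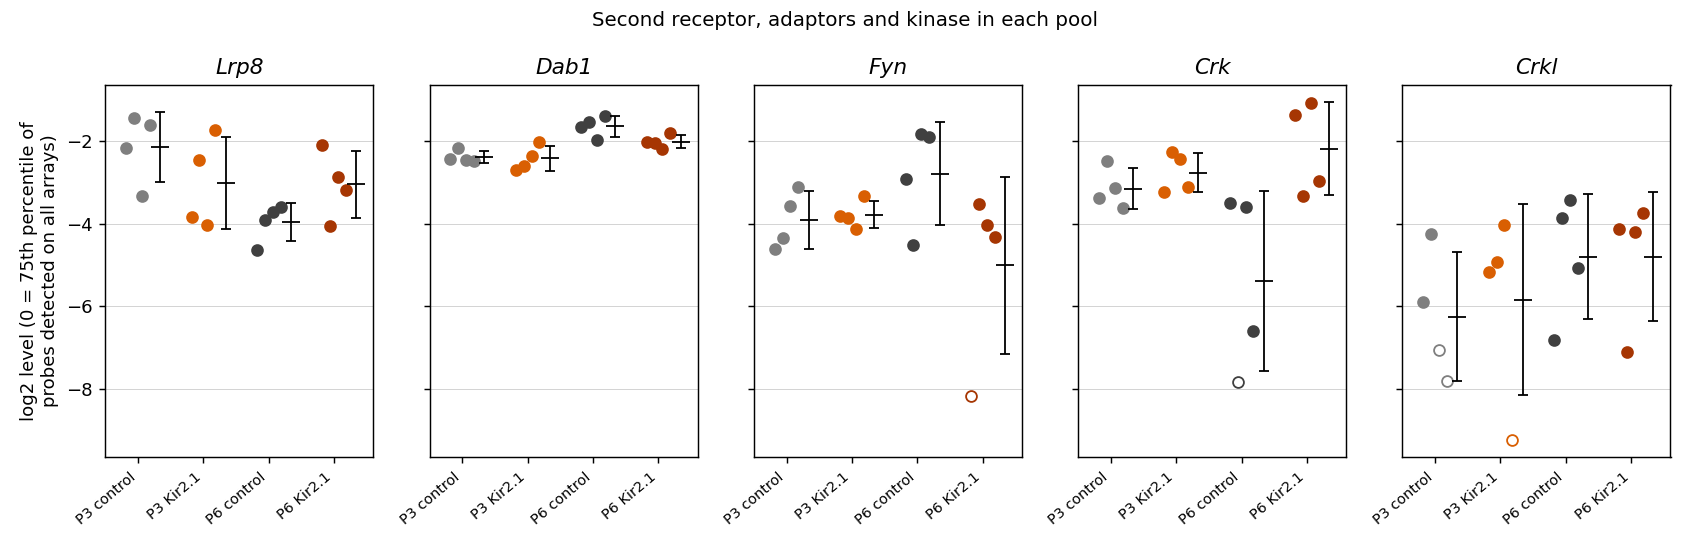
Log2 level of Lrp8, Dab1, Fyn, Crk and Crkl in each of the 16 pools (filled, well above background; open, not), by group, with the mean and SD of 4 pools. Dab1 is tight in every group and higher in all P6 control than in all P3 control pools, while Crkl spans several log2 units within each group.

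**Figure D3:**
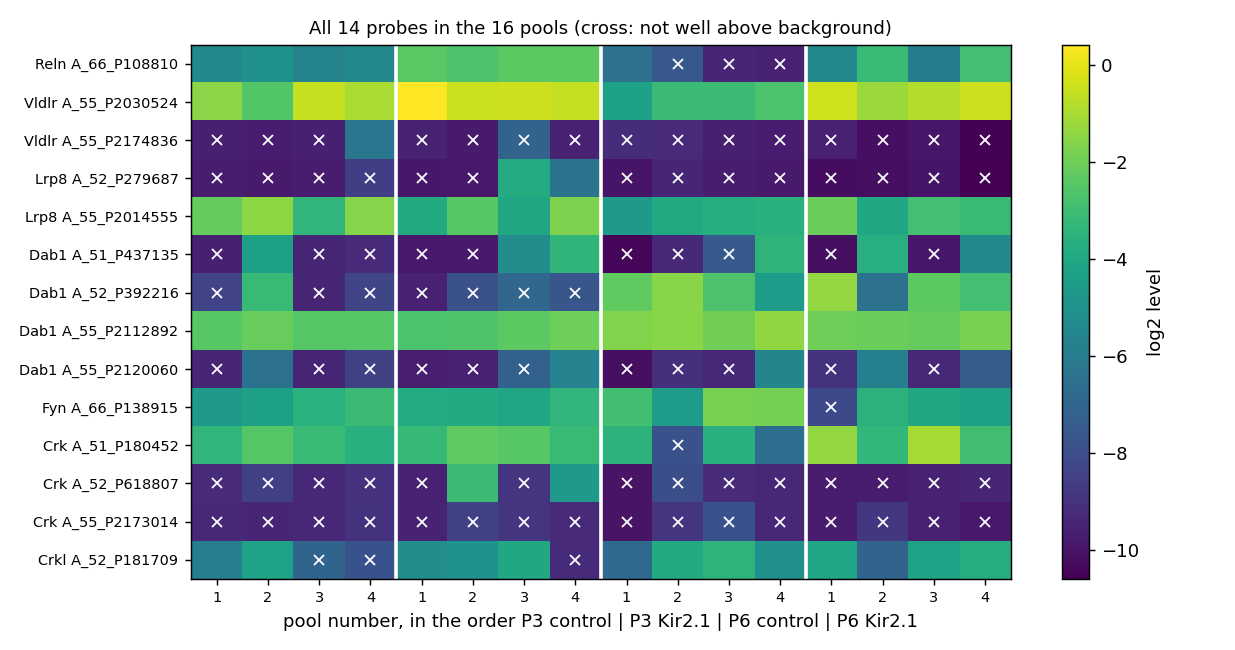
Log2 level of all 14 probes (rows) in the 16 pools (columns), with a cross where a probe was not well above background. The probes of 1 gene differ in how often they were detected, and Dab1 A_52_P392216 is detected in all 8 pools of P6 and in 1 pool of P3.

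Counted over the members, pools did not overlap between treatments for 2 of 7 at P3 (Reln and Vldlr), as held for 6.79% of all features. At P6 this was so for 3 of 7 (Reln, Vldlr and Crk), as for 8.9% of all features, and in the same direction at both ages for 2 of 7 (0.646%). Crk was also higher on average with Kir2.1 at both ages, by 0.38 at P3, where its pools overlapped, and by 3.20 at P6. These are the contrasts the group was assembled on, so nothing is read from the counts.

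The comparisons with age were tested for the 5 members other than Reln and Vldlr, whose choice used the same arrays. In control cells 0 of 5 passed in limma, where 2.59% of all features did, and 3 of 5 had an unadjusted p under 0.05 (Lrp8, Dab1 and Crk), as did 17.9% of all features. Lrp8 and Dab1 did not overlap between the ages in control, as held for 12.7% of all features, and they differed in opposite directions. In Kir2.1 cells 0 of 5 passed, where 0.878% of all features did, with 0 of 5 at an unadjusted p under 0.05 (15% of all features). In the interaction 0 of 5 passed, where 0.0902% of all features did, with Lrp8 and Crk at an unadjusted p under 0.05, as were 10.7% of all features. The interaction is also the Kir2.1 difference at P6 less that at P3. It is thus made from the contrasts the group was assembled on, and nothing is read from its counts.

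**Figure D4:**
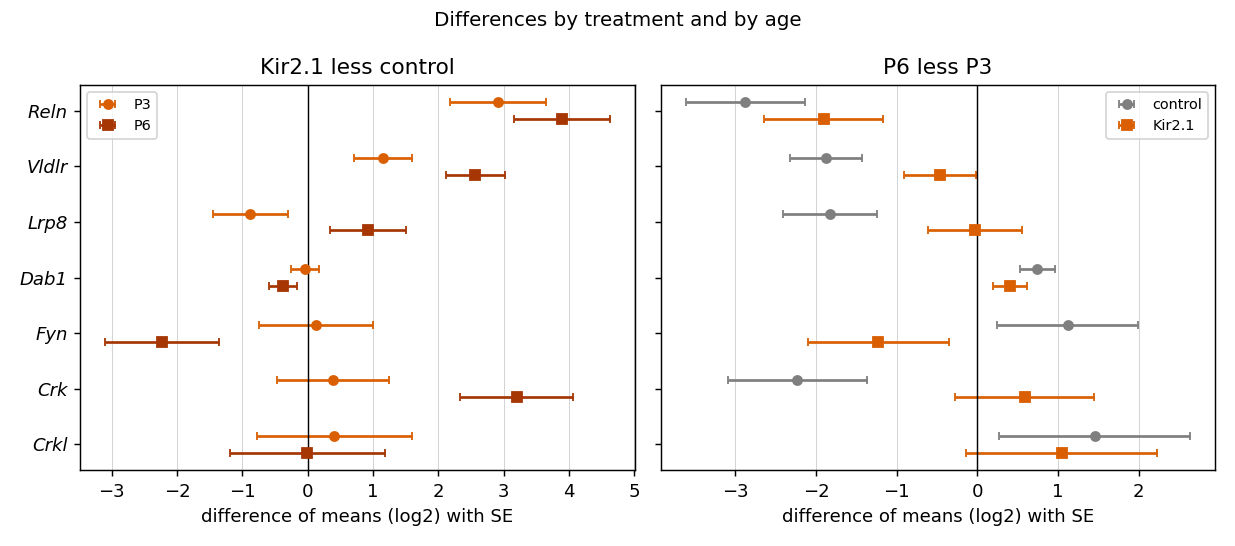
Difference of group means with its SE from limma for the 7 members, Kir2.1 less control at each age (left) and P6 less P3 in each treatment (right), on the log2 scale. On the left panel Reln, Vldlr and Crk lie to the right of 0 at both ages, Crk by 0.38 at P3. Dab1 lies at -0.04 at P3 and -0.37 at P6 (SE 0.22 each). With the mean of all tested Dab1 probes, not drawn here, these were 0.21 and 0.04.

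Of 54 other genes of the pathway, chosen with earlier results known, all had a probe and 43 were tested. Few of them passed the threshold in any comparison, and those that did belonged to several arms. With Kir2.1 at P3, 0 of 43 passed in limma, where 0.00949% of all features did, with 4 of 43 at an unadjusted p under 0.05, as were 6.53% of all features. At P6, where 1.76% of all features passed, 1 fell and 0 rose: Pik3cb, a catalytic subunit of phosphoinositide 3-kinase, by 4.52 on the log2 scale (SE 0.65, limma adjusted p = 0.00561). Its mean was -4.46 ± 0.79 in control and -8.97 ± 1.56 in Kir2.1 (SD, n = 4 each), where 1 of 4 pools was well above background, so the size depends on how dim signals are treated (-3.06 with the floor, -1.30 with normexp). Fitting only the P6 groups ended this call (limma adjusted p = 0.125). At P3 Pik3cb differed by -4.02 (SE 0.65, limma adjusted p = 0.0587), with 0 of 4 Kir2.1 pools well above background. The list was written with earlier results known, so the P6 call is not independent support. An unadjusted p under 0.05 in limma was found at P6 for 13 of 43, as for 3678 of all 21068 features. Averaged over both ages, Pik3cb alone passed, with a difference of -4.27, and 0 of 43 rose, where 0.712% of all features passed. This average is made from the P3 and P6 differences given above, so its call is not independent support either. In that average 8 of 43 had an unadjusted p under 0.05, as had 2845 of 21068 features. Over all features the calls at P6 were 182 higher and 188 lower, or 253 and 106 in the deposited value table, which moved the median of all features by 0.20 at this age. The median difference of the 43 genes was -0.12 at P3 and -0.07 at P6, beside -0.03 and -0.13 over all features.

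From P3 to P6 in control cells, 1 of the 43 rose and 2 fell in limma, where 2.59% of all features passed. An unadjusted p under 0.05 was found for 9 of 43, as for 17.9% of all features. App, which encodes the amyloid precursor protein, rose by 1.29 (SE 0.30, limma adjusted p = 0.0416), a call that ended when any 1 of 13 pools was left out (adjusted p up to 0.110) and under 3 of 13 other settings. Pafah1b3, a catalytic subunit of the acetylhydrolase complex to which LIS1 belongs, fell by 2.03 on the log2 scale, from 1.91 ± 0.23 to -0.12 ± 0.25 (SD, n = 4 each; limma adjusted p = 0.00214). Dcx, which encodes the microtubule protein doublecortin, fell by 0.96 (SE 0.19, limma adjusted p = 0.0166), a call that ended without P3 control pool 3 or P6 control pool 4 (adjusted p up to 0.0613) and with only the control groups in the fit. In Kir2.1 cells 0 rose and 2 fell, where 0.878% of all features passed, and 8 of 43 had an unadjusted p under 0.05 (15% of all features). Pafah1b3 fell by 1.49 (SE 0.26, limma adjusted p = 0.0222) and Mapt, which encodes tau, by 1.26 (SE 0.20, limma adjusted p = 0.0160). The call of Pafah1b3 in Kir2.1 cells ended without P3 Kir2.1 pool 2, 3 or 4 or without P6 Kir2.1 pool 4, and that of Mapt without P3 Kir2.1 pool 4. They also ended under 2 and 4 of 13 other settings, with adjusted p up to 0.140 and 0.131. In the interaction 0 of 43 passed, with 6 of 43 at an unadjusted p under 0.05 in limma, where 10.7% of all features were.

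The genes of the LIS1 arm (Pafah1b1, Pafah1b2, Pafah1b3, Ndel1, Nde1 and Dcx) link reelin signalling to microtubules and dynein. With age in control cells 6 of 6 had a negative difference, as had 11225 of 21068 features, with a median of -0.94. The 2 above passed, where 2.59% of all features did. With Kir2.1 at P6, 6 of 6 had a positive difference, as had 9205 of 21068 features, with a median of 0.80, and 0 of 6 passed. Both directions, 6 of 6, were the same on these arrays with normexp, quantile normalization, scaling over all gene probes and the deposited value table. The list was written with earlier results known, so nothing is read from these counts. Ndel1, a LIS1 partner, had a level of -1.21 ± 0.25 in P3 control, and at P6 of -2.17 ± 0.44 in control against -1.24 ± 0.32 with Kir2.1 (SD, n = 4 each). Both comparisons use the P6 control pools. Among relatives of the receptors, 5 of 8 other LDL receptor family genes were tested and 0 passed in any comparison, and of 7 other Src family genes 2 were tested and 0 passed.

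Summed markers of some cell types differed between the groups at P6. The summed level of 11 markers of bulb interneurons (Gad1, Gad2, Slc32a1 and others), on a linear scale where 1 is the 75th percentile, was 7.60, 4.22, 2.25 and 2.53 in P6 control pools 1 to 4. In P6 Kir2.1 pools it was 0.952, 2.67, 1.27 and 0.538, in P3 control 0.488 to 0.886 and in P3 Kir2.1 0.664 to 1.00. Control pools at P6 were thus mostly higher than the rest, overlapping only with P6 Kir2.1 pool 2. The count and the median of this list had the same direction in both comparisons that follow under each of 4 other scalings or background corrections. Of the defining markers, Gad1 was well above background in 1 P3 control pool, 3 P3 Kir2.1 pools, 4 P6 control pools and 3 P6 Kir2.1 pools. From P3 to P6 in control, 3 of 10 tested interneuron markers passed the threshold and rose (Gad1, Gad2 and Meis2), where 2.59% of all features passed. A positive difference was found for 10 of 10 (median 3.31), as for 9843 of 21068 features. Meis2, well above background in all 16 pools, rose by 4.32 (SE 0.59, limma adjusted p = 0.00313). Gad2, like Gad1, was well above background in 1 of 4 P3 control pools and in 4 of 4 at P6, so no size is given for either. With Kir2.1 at P6, 9 of 10 had a negative difference (median -2.71), as had 11863 of 21068 features. An unadjusted p under 0.05 in limma was found for 6 of 10, as for 3678 of 21068 features. Past the threshold was 1 of 10, which fell (Penk, well above background in 3 P6 control pools and 0 P6 Kir2.1 pools), where 1.76% of all features passed. The Gad1 call ended when any 1 of 12 pools was left out, the Gad2 call without P3 control pool 3, and the Penk call when any 1 of 6 pools was left out.

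The summed level of 9 mitral and tufted cell markers was 8.96 to 15.2 in control and 16.1 to 24.0 in Kir2.1 pools at P6, which did not overlap. Of 8 tested members, 6 had a positive and 2 a negative difference with Kir2.1 at P6 (median 0.61), and 0 passed in limma. At P3 it was 12.6 to 18.1 in control and 11.4 to 15.5 in Kir2.1, which overlapped. From P3 to P6 in Kir2.1 cells, 4 of 8 tested members had a positive and 4 a negative difference (median -0.04). Of these 1 passed the threshold, Tbx21, which rose (limma adjusted p = 0.0463), where 0.878% of all features passed. That call ended when any 1 of 13 pools was left out and under 4 of 13 other settings. In pooled cells, fewer cells of a type and less RNA of a gene per cell cannot be told apart. P6 Kir2.1 pool 2 and P6 control pools 3 and 4 had the nearest interneuron sums (2.67, 2.25 and 2.53). Reln was -3.16, -9.41 and -9.48 in these pools, and Vldlr -1.26, -3.08 and -2.71. This Kir2.1 pool was also 1 of the 2 brighter ones of its group for Reln and had a high vascular sum (3.23). These 3 picked pools cannot show what part the markers had. At P3 both marker sums overlapped between the treatments. The interneuron sums there were 0.664 to 1.00 with Kir2.1 and 0.488 to 0.886 in control. Reln differed by 2.92 and Vldlr by 1.15. Summed astrocyte and radial glia markers were 1.13 to 3.06 (control) and 2.84 to 7.88 (Kir2.1) at P3, and 8.97 to 12.2 (control) and 3.01 to 13.2 (Kir2.1) at P6. From P3 to P6 in control, 1 of 5 tested members rose, Fabp7 (limma adjusted p = 0.0382), where 2.59% of all features passed. The Fabp7 call ended when any 1 of 9 pools was left out and under 5 of 13 other settings. At P6 the summed vascular markers were 3.24 and 3.23 in Kir2.1 pools 1 and 2, against 0.0993 and 0.0203 in Kir2.1 pools 3 and 4 and 0.027 to 0.261 in control, and 4 of 4 tested members had a positive difference (median 2.33). Those of microglia were 0.365 to 1.82 in control and 0.152 to 0.552 in Kir2.1, with a negative difference in 4 of 4 tested members (median -2.01). Those of olfactory sensory neurons were 0.329 to 1.99 in control and 0.165 to 0.488 in Kir2.1, with a negative difference in 3 of 4 (median -1.41). The treatments overlapped in each of these 3 sums, and 0 members of the 3 lists passed the threshold with Kir2.1 at P6 in limma, with 1, 1 and 2 at an unadjusted p under 0.05. Over all features at P6, 9205 of 21068 differences were positive and 11863 negative, and 3678 had an unadjusted p under 0.05 in limma. The part of these markers in the differences of the members was not tested.

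**Figure D5:**
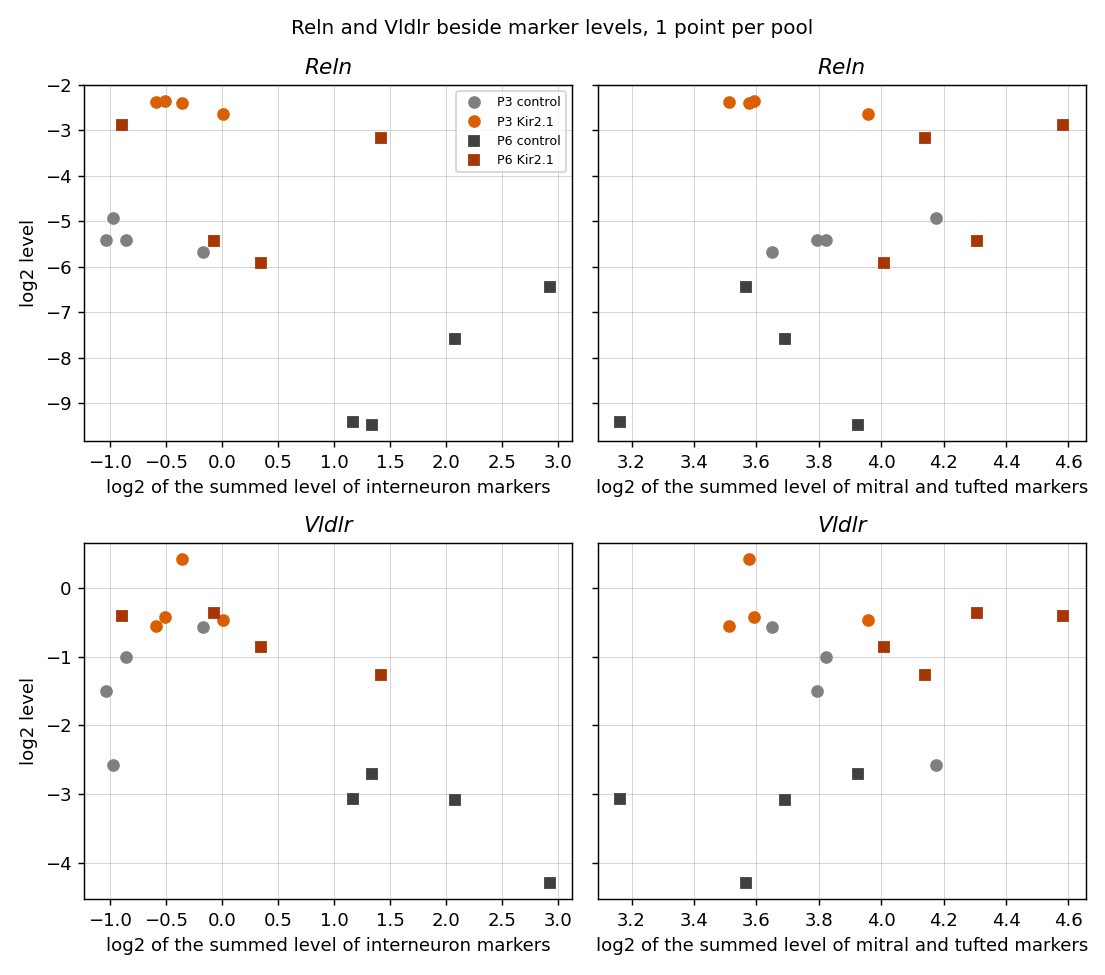
Log2 level of Reln (top) and Vldlr (bottom) against the log2 of the summed level of interneuron markers (left) and of mitral and tufted cell markers (right), 1 point per pool and 4 pools per group. P6 control pools lie low in both genes and mostly to the right for interneuron markers. The P3 groups differ in Reln, and their marker sums overlap. The part of the markers in these differences was not tested.

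The genes most like Reln over the 16 arrays, by Pearson correlation of log2 levels among 12032 other named genes, were Kcnip2 (r = 0.945), Syngr3 (0.901), Ppp2r1a (0.887), Stk32b (0.880) and Tma7 (0.877). Kcnip2, which encodes a subunit of A-type potassium channels, had mean levels of -4.62 (control) and -2.85 (Kir2.1) at P3. At P6 they were -7.75 (control) and -3.92 (Kir2.1). The groups stood in the same order as for Reln, whose pattern Kcnip2 was picked to match. The genes most like Vldlr were Actl6b (0.917), Rpl10a (0.894), Usp22 (0.888), Pdcd6ip (0.879) and Srprb (0.871). Reln and Vldlr had r = 0.728 with each other. These values describe 16 arrays that share 2 slides and fall into 4 groups, and they carry no test.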

How the data were processed

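Expression was measured in 16 pools of mitral cells on 1-colour (Cy3) Agilent arrays, 1 array per pool. Per the file headers and the submitters' processing notes, the authors read the arrays with Agilent Feature Extraction 10.7.3.1 and deposited scanner tables in which the processed signal is a linear intensity with background already subtracted. The deposited value table of the series holds the signal of the same arrays as a ratio to a constant of each array, on a linear scale and not centred on genes (median ratio to the scanner signal scaled by its 75th percentile 1.000 on each array, median value per array 0.0395 to 0.13), and was an alternative.

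Control and outlier spots were dropped and replicate spots averaged, which kept 55598 of 55681 probes. Symbols for 26546 of 28079 probes that list a RefSeq transcript came from a RefSeq table of assembly GRCm38.p6. Each array was scaled by the 75th percentile of 12102 probes that all 16 arrays detected well above background, and log2 was taken. Testing required detection well above background on 4 or more arrays, and a gene was represented by its brightest probe on average, which gave 21068 features. All arrays entered a single limma fit (lmFit and eBayes, limma 3.58.1, R 4.3.3), with Benjamini-Hochberg adjustment over all features and a threshold of 0.05. The number of arrays limits the precision. A fold "at least" compares the mean of the bright group with a stand-in for the dim one, namely, on each of its arrays, the larger of the probe's signal and the dimmest signal still well above background. Promoter windows came from RefSeq, matched by symbol for 7 of 7 members. The fit was tested on simulated data.

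The members, the gene lists and the tests were chosen with earlier results of these data known. The genes named are all 7 members, other pathway genes and markers past the threshold, and the 5 genes most like Reln and Vldlr. Ndel1 was named after its values were seen.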

Additional observations from a re-analysis of the deposited data

Results flagged for a closer look

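A gap test (Dixon's, at the 95% level) over the 28 sets of 4 pools of the 7 members marked 4 pools that stood apart from the other 3 of their group, and chance marks about 1 in 20 sets. Reln in P3 Kir2.1 pool 2 lay at -2.64, below pools at -2.40, -2.36 and -2.37, a gap that is small beside the difference from control. Vldlr in P3 Kir2.1 pool 1 lay at 0.41, above pools between -0.56 and -0.42. Dab1 in P3 control pool 2 lay at -2.16, above pools between -2.48 and -2.42, and in the same pool Dab1 probe A_52_P392216 was well above background, alone among the 8 pools of P3. Crkl in P6 Kir2.1 pool 2 lay at -7.11, below pools between -4.21 and -3.74.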

How the results depend on the processing

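The comparisons were repeated under 13 other settings and without each of the 16 pools in turn. The count of the 5 tested members past the threshold stayed 0 in each age comparison and in the interaction under every setting and left-out pool. Reln, Kir2.1 less control, kept its direction but was 1.66 at P3, 1.08 at P6 and 1.37 averaged with normexp background correction, a setting chosen after seeing the data because the scanner tables used here carry median and not mean signals, and 2.74 at P6 with the floor. Over left-out pools it was 2.81 to 3.06 at P3 and 3.40 to 4.48 at P6. The interaction of Reln, which had no test, was 0.97, but -0.59 with normexp and -0.18 with the floor. The difference of Lrp8 with age in Kir2.1 cells turned from -0.03 to 0.14 with scaling over all gene probes, 0.0060 with quantile normalization and 0.13 in the deposited value table, and was -0.37 to 0.40 over left-out pools. Over left-out pools Crkl was -0.089 to 1.81 with age in Kir2.1 cells and -1.54 to 0.36 in the interaction. The cause was not tested. Scaling over all gene probes moved the median of all features by 0.21 in Kir2.1 against control at P6, by 0.13 in the average and by 0.17 with age in Kir2.1 cells and in the interaction.

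Counts over all features moved more. At P3, 2 features passed, against 9 with normexp, 8 with all-probe scaling or the value table, 11 with a filter at 8 arrays, 1 with no filter, 13 with the floor, 18 with only the groups compared, 9 with a trended prior, 25 with array weights and 0 with a replicate block. At P6, 370 passed, against 711 with normexp, 193 with no filter, 20 with only the groups compared, 632 with a trended prior, 158 with array weights and 182 with a replicate block. Averaged over ages, 150 passed, against 271 with normexp, 75 with no filter, 343 with a trended prior and 80 with a replicate block. With age in control, 545 passed, against 295 with no filter, 181 with only the groups compared, 884 with a trended prior and 326 with a replicate block. With age in Kir2.1 cells, 185 passed, against 120 with quantile normalization, 24 with only the groups compared and 53 with a replicate block. In the interaction, 19 passed, against 46 with normexp, 31 with a filter at 8 arrays, 99 with a trended prior and 9 with a replicate block. Calls higher and lower were 182 and 188 at P6, against 71.5% of calls higher with all-probe scaling, 253 and 106 in the value table and 246 and 465 with normexp. They were 85 and 100 with age in Kir2.1 cells, against 90 and 50, 85 and 47, and 80 and 40 with quantile normalization. Averaged over ages they were 89 and 61, against 164 and 53 with all-probe scaling. Left-out pools gave 0 to 9, 172 to 413, 70 to 302, 235 to 587, 29 to 202 and 9 to 43 features, in the same order. Same-numbered pools did not deviate together (correlations -0.028 to 0.031 over 24 pairs), so the numbers were not taken to pair the pools. The replicate block left Reln at 2.92 and Vldlr at 1.15 at P3, and 4 of 16 pools correlated best with a pool of their own number. Fitting only the groups compared gives no value for the average or the interaction. Signal over background limits Reln in P6 control and Crkl at P3.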
